A study of Sus scrofa with 2 samples.

Results

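TEX14 and 5 genes of the machinery that TEX14 acts on, KIF23, RACGAP1, ECT2, ANLN and PRC1, were followed through 2 lists of ZBTB16 CUT&Tag peaks from pig testis. They are 6 of 16491 protein-coding genes with a symbol of their own. Every peak that the authors assigned to a gene of this name was taken, in all annotation classes, which gave 9 of the 10273 peaks of replicate 1 and 6 of the 7301 peaks of replicate 2. The genes were chosen by the peaks these same lists hold for them, among others the number and fold of the TEX14 peaks, so their values are described and not tested.

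CUT&Tag directs a transposase to a chromatin protein through an antibody and sequences the DNA fragments that are cut out there. Both libraries were of wild-type immature spermatogonia from pig testicles, made from 100000 cells each, and no other genotype, treatment or age is given in the labels. They form 1 group and there is no second condition. Separate animals or cultures are not stated for them, and the IgG control described in the protocol was not analysed here, so signal without the ZBTB16 antibody was not measured. Peak lists hold no expression values, so the cell type label was not checked against marker genes. All positions are on Sscrofa11.1. A fold is the authors' own value, the fragments at the summit of a peak over a background. Whether that background came from the same library or from a control is not stated in the sources used here. A start is the transcription start site (TSS) of the transcript to which the authors tied the peak.

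At the end of mitosis most cells cut the bridge that joins the daughters. RHOA, a small GTPase, drives a contractile ring at the cell equator, a bundle of microtubules called the central spindle places it, and the ESCRT machinery makes the last cut, called abscission. Germ cells stop short of this cut: the ring remnant becomes a stable intercellular bridge through which clones of spermatogonia share cytoplasm. TEX14 is the germ cell protein that stops abscission by binding CEP55, the recruiter of ESCRT to the midbody, and male mice without it lack stable bridges and are sterile. KIF23 and RACGAP1 form centralspindlin, ECT2 activates RHOA, ANLN ties the ring to septins, and PRC1 bundles the microtubules of the central spindle. ZBTB16, also called PLZF, is a DNA-binding zinc finger protein that undifferentiated spermatogonia need for self-renewal.

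TEX14 carried 5 peaks in replicate 1 and 3 in replicate 2, all of them intronic, KIF23, ANLN and PRC1 carried 1 peak at the start in each library, ECT2 carried 1 peak in replicate 1 only, and RACGAP1 carried none. An assigned peak in both libraries was therefore found for 4 of the 6 genes, against 28.2% of all genes tested. By library it was 5 of 6 in replicate 1 against 44.9% of all genes, and 4 of 6 in replicate 2 against 34.1%. By the authors' promoter class alone it was PRC1 only, 1 of 6, against 20.8% of all genes, with 4 of 6 in replicate 1 (32.8% of all genes) and 1 of 6 in replicate 2 (24.9%). By any peak within 3 kb of the gene, whatever gene it was assigned to, it was again 4 of 6 in both libraries, against 36.1%. Every one of the 6 peaks of replicate 2 overlapped a peak of replicate 1, and 6 of the 9 peaks of replicate 1 overlapped one of replicate 2. The 3 peaks without a partner were the ECT2 peak and 2 of TEX14. Over all peaks, 5474 of 7301 in replicate 2 and 5468 of 10273 (53.2%) in replicate 1 overlapped a peak of the other list. For intronic peaks the shares were 39.4% in replicate 2 and 22.6% in replicate 1.

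TEX14 lies on chromosome 12, 34815472 to 34975901, and is read towards lower coordinates. It spans 160 kb and has a single transcript, XM_021067278.1, in the RefSeq table, with 33 introns. The strongest TEX14 peak lay in intron 1 at 34968102 to 34969301, with its summit 7.08 kb downstream of the start in replicate 1 and 7.25 kb in replicate 2. Its fold was 9.09 in replicate 1, from 62 fragments at the summit (exact 95% Poisson interval 47.5 to 79.5), and 7.68 in replicate 2, from 43 fragments (31.1 to 57.9). These intervals, like all below, cover counting error only. It was also the widest peak of the 6 genes, at 1200 bp in replicate 1 and 963 bp in replicate 2, and the peak of replicate 2 lay wholly inside that of replicate 1.

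A pair of peaks in the same intron lay farther in. The peak at 34923864 to 34924593 had its summit 51.7 kb from the start in replicate 1 and 51.9 kb in replicate 2, and a fold of 8.42 from 47 fragments (34.5 to 62.5) and of 6.72 from 38 fragments (26.9 to 52.2). The peak at 34933062 to 34933835 had its summit 42.2 and 42.3 kb from the start, and a fold of 6.82 from 17 fragments (9.90 to 27.2) and of 7.32 from 16 fragments (9.15 to 26.0). The order of the 3 shared peaks thus differed between the libraries: the peak near 42 kb had the lowest fold in replicate 1 and not in replicate 2. The ratio of summit fragments, replicate 1 over replicate 2, was 1.44 (exact conditional 95% interval 0.962 to 2.18) near 7 kb, 1.06 (0.505 to 2.25) near 42 kb and 1.24 (0.789 to 1.95) near 52 kb. Over 5458 shared peaks of the 2 lists the median ratio was 1.29. These ratios are a description, since a site enters only where both lists called a peak. The summits of the libraries were 172, 79 and 194 bp apart at these sites, against a median of 96 bp over those shared peaks.

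The fold hides a difference in local background between these sites. The background was 5.93 fragments under the peak near 7 kb and 4.70 under the peak near 52 kb in replicate 1, above 97.3% and 93.7% of all peaks of that list. In replicate 2 it was 4.73 and 4.80, above 97.2% and 97.3%. Under the peak near 42 kb it was 1.64 and 1.32 fragments, above 17.2% and 15.5% of peaks. The sites near 7 and 52 kb therefore held many more fragments than the site near 42 kb in both libraries, while their folds lay closer. What raised the background at these sites was not tested, and whether it reflects the library itself or a control is not known.

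The other TEX14 peaks were seen in replicate 1 only. The peak at 34914282 to 34914802 in intron 1, with its summit 61.3 kb from the start, had a fold of 6.0 from 17 fragments (9.90 to 27.2), as many as the shared site near 42 kb. The peak at 34898821 to 34899370 in intron 2, 76.9 kb from the start, was the weakest of the gene, with a fold of 3.66 from 15 fragments (8.40 to 24.7). Of 30 intronic peaks of replicate 1 with exactly 17 fragments, 19 (63.3%, 95% Wilson interval 45.5 to 78.1) overlapped a peak of replicate 2, and of 176 with 15 to 19 fragments, 68 (38.6%, 31.8 to 46.0) did. Many intronic peaks with 15 to 19 fragments thus had no partner, although most of those with exactly 17 had one. A missing peak in replicate 2 means only that none was called there, and the reason was not tested. The 5 summits of replicate 1 were spread over 69.8 kb and the 3 of replicate 2 over 44.6 kb.

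**Figure D1:**
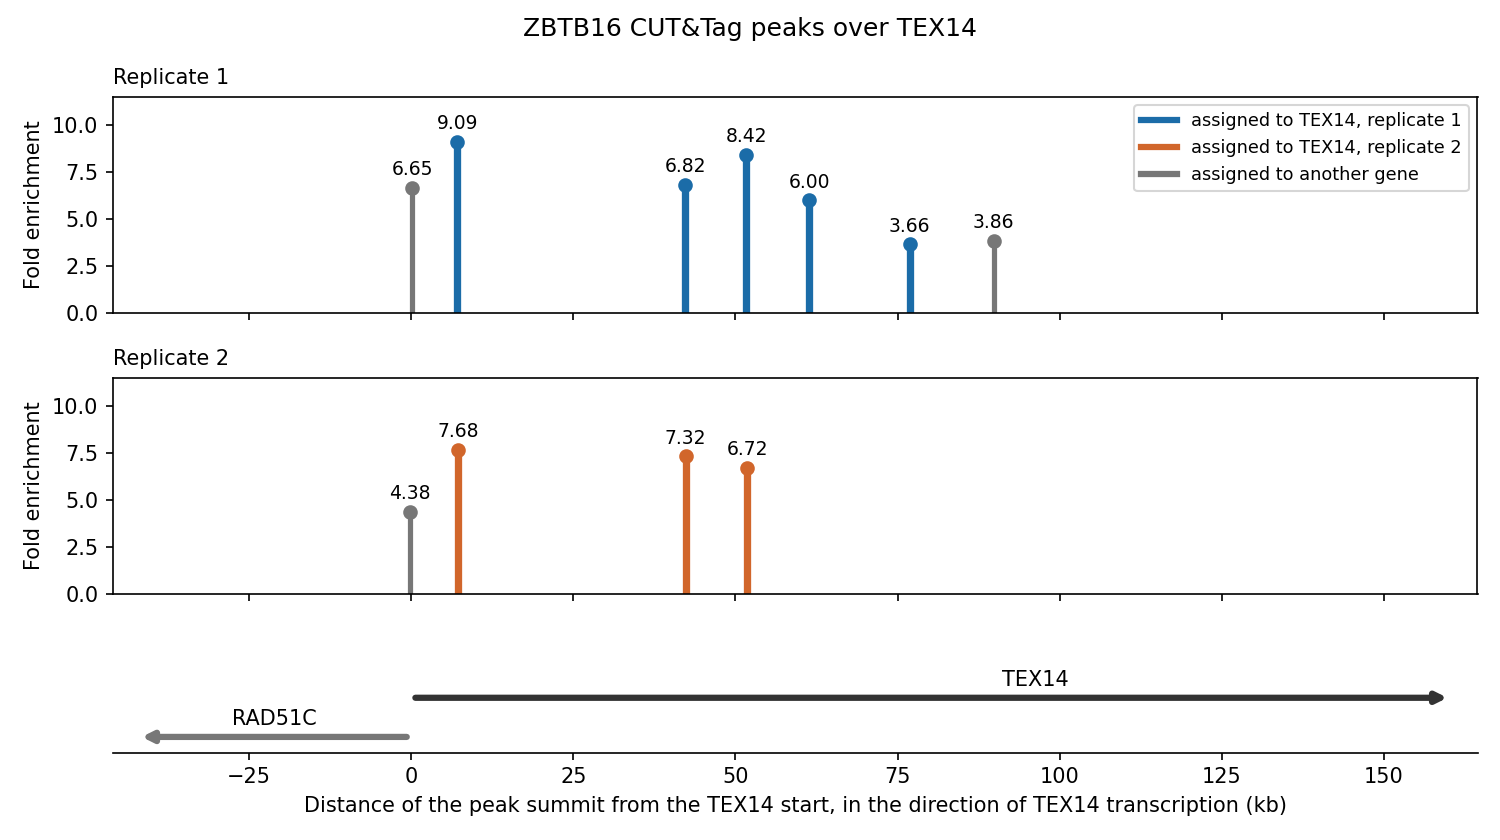
Fold enrichment (vertical axis) of every peak that touches TEX14, at the distance of its summit from the TEX14 start in kb (horizontal axis), with replicate 1 above replicate 2 and the 2 genes drawn to scale as arrows. The 3 intronic sites near 7, 42 and 52 kb stood in both libraries at folds of 6.72 to 9.09, and the gray lines are peaks that the authors assigned to RAD51C or C12H17orf47.

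The start of TEX14 itself was covered by a peak in both libraries, which the authors assigned to its neighbour. RAD51C, a gene of homologous recombination, starts 48 bp from the TEX14 start and is read the other way, so the genes lie back to back. The peak of replicate 1 at 34975527 to 34976279 had a fold of 6.65 from 22 fragments (13.8 to 33.3) and reached 375 bp into TEX14 and 331 bp into RAD51C. The peak of replicate 2 at 34975867 to 34976262 had a fold of 4.38 from 13 fragments (6.92 to 22.2) and reached 35 bp into TEX14 and 314 bp into RAD51C. The summit lay on the TEX14 side in replicate 1, 190 bp downstream of the TEX14 start, and on the RAD51C side in replicate 2, 199 bp upstream of the TEX14 start. The ratio of fragments was 1.69 (0.816 to 3.66), beside the median of 1.29 over shared peaks. Since each peak was tied to 1 gene only, TEX14 has no promoter peak in the authors' annotation although a peak spans its start in both lists. A further peak of replicate 1 inside intron 2 of TEX14, at 34885505 to 34886176, 89.8 kb from the start, reached 3.86-fold on 16 fragments and went to C12H17orf47, whose start was nearer. By position 7 peaks of replicate 1 and 4 of replicate 2 touched the gene.

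Among intronic peaks the shared TEX14 peaks stood high by fold. In replicate 1 the peaks near 7, 52 and 42 kb ranked 7, 8 and 35 of 1140 intronic peaks, and that near 61 kb ranked 78. In replicate 2 the peaks near 7, 42 and 52 kb ranked 12, 21 and 30 of 695. The median fold of intronic peaks was 4.37 in replicate 1 and 4.39 in replicate 2, below that of promoter peaks at 5.33 and 5.25. The peak of intron 2 near 77 kb was an exception at rank 964. Of 232 intronic peaks of replicate 1 paired with an intronic peak of replicate 2, ordered by the lower of the folds, the TEX14 peaks held places 7, 13 and 14.

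**Figure D2:**
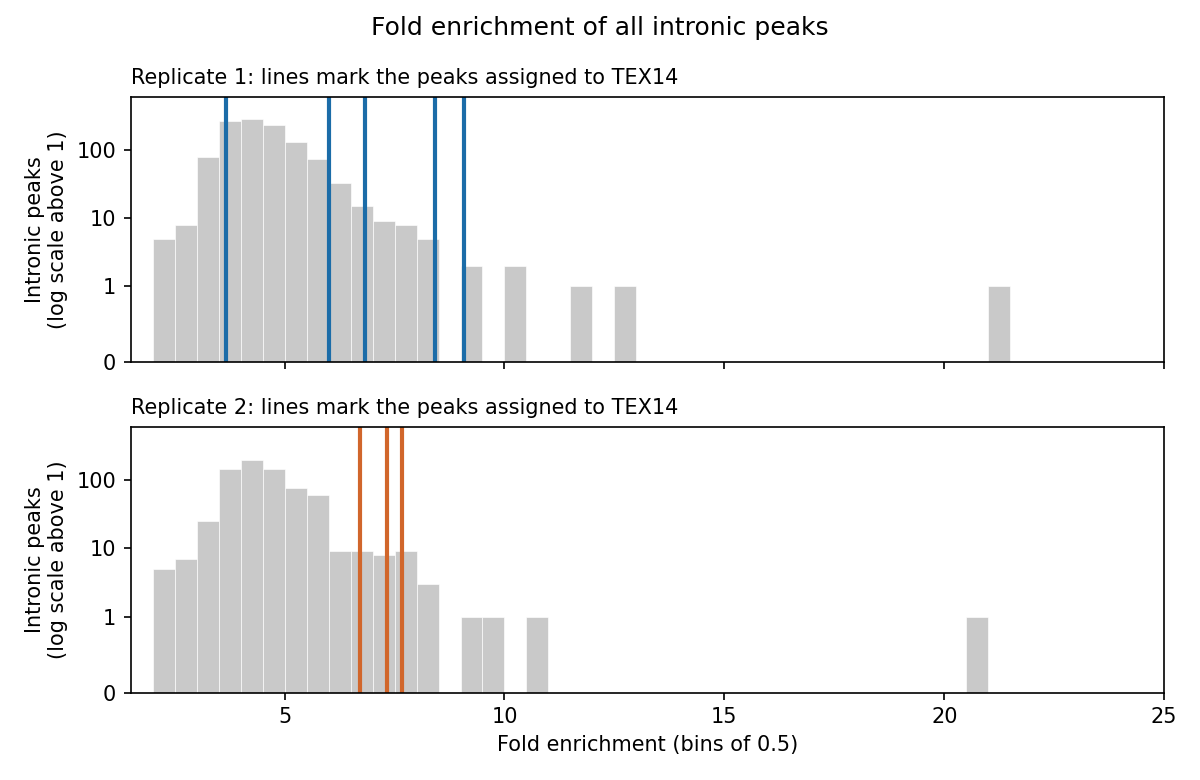
Number of intronic peaks (vertical axis, log scale above 1) by fold enrichment (horizontal axis, bins of 0.5) in replicate 1 and replicate 2, with the peaks assigned to TEX14 as colored lines. All TEX14 peaks except that at 3.66 lay above the median intronic fold of 4.37 and 4.39.

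The number of intronic peaks assigned to it set TEX14 apart as a description, since the gene was chosen for it. These counts go by the authors' assigned gene. An intronic peak inside a gene but assigned to another, as the peak given to C12H17orf47, counts for the assigned gene only. Of 16491 genes, TEX14 was the only gene with at least 5 assigned intronic peaks in replicate 1, and no other gene had more than 3. In replicate 2 its 3 assigned intronic peaks were matched by TFEB, a transcription factor of lysosome genes, and by no other gene. Of the 168 genes with an assigned intronic peak shared by position, 162 had 1, 5 had 2, and TEX14 had 3. Peaks lying within the introns of each gene, whatever their assigned gene, were not counted. A long gene offers more room for peaks. Of 1579 genes at least as long as TEX14, 191 (12.1%) had an assigned intronic peak in replicate 1 and 120 (7.60%) in replicate 2. By the number of assigned peaks of any class, the genes most like TEX14 over the 2 libraries included COLGALT1, a collagen galactosyltransferase (5 and 3 peaks), and RPS6KA1, a kinase downstream of ERK (4 and 3). Their peaks were nearly all of other classes. COLGALT1 had 1 intronic peak in replicate 1 and 0 in replicate 2, and RPS6KA1 had 0 in both. The strongest peaks of these genes had folds of 5.61 to 6.71, below the 9.09 and 7.68 of TEX14.

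Centralspindlin was marked at KIF23 and not at RACGAP1. KIF23, the kinesin of the complex and a component of germ cell bridges, lies on chromosome 1, 167239973 to 167281250. Its peak of replicate 1, at 167239693 to 167240047, spanned the start and had a fold of 3.75 from 11 fragments (5.49 to 19.7). The peak of replicate 2, at 167240039 to 167240393, began 64 bp downstream of the start and had a fold of 4.31 from 11 fragments (5.49 to 19.7). The peaks overlapped by 9 bp only, and 14 of 5458 shared peaks (0.257%) overlapped by as little, but the summits were 136 bp apart, a distance reached or passed by 38.8% of shared peaks. The authors' class went from promoter to 5′ UTR between the lists as the peak edge moved across the start. By fold, KIF23 was low among peaks of its class, above 5.71% of 6251 promoter peaks in replicate 1 and 23.7% of 636 5′ UTR peaks in replicate 2.

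RACGAP1, the GTPase-activating subunit of centralspindlin, lies on chromosome 5, 15894314 to 15943619. Neither library held an assigned peak or any peak within 3 kb of it. The closest peak was in an intron of ASIC1, 28.0 kb away, and was present in both libraries with folds of 3.99 and 3.78. The next was at SMARCD1, 49.0 kb away in replicate 1 and 48.7 kb in replicate 2. Both of these neighbouring sites had peaks in each library. RACGAP1 itself had none detected, and 49.3% of all genes likewise had no assigned peak in either library.

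ECT2, the exchange factor that loads RHOA with GTP once centralspindlin has recruited it, lies on chromosome 13, 111248215 to 111310746. Its peak of replicate 1, at 111247785 to 111248380, spanned the start with the summit 80 bp upstream and had a fold of 6.32 from 21 fragments (13 to 32.1). That was the highest fold of any start peak assigned to the 6 genes, yet replicate 2 had no peak within the gene or 3 kb of it. Of the 272 promoter peaks of replicate 1 with exactly 21 fragments, 215 (79.0%, 73.8 to 83.5) overlapped a peak of replicate 2, so ECT2 belonged to the minority. The neighbouring peak at NCEH1, 40.7 kb before the gene, was present in both libraries at folds of 5.93 and 5.69. Whether ZBTB16 signal at ECT2 was absent in replicate 2 or below its detection cannot be told from a peak list.

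ANLN, the scaffold anillin that links actin, myosin and septins in the ring, lies on chromosome 18, 37647952 to 37710939, and is read towards lower coordinates. The authors tied its peak to transcript XM_021078542.1, 1 of 7 in the RefSeq table, which starts at 37708609. The peak of replicate 1, at 37707978 to 37708877, had a fold of 5.63 from 19 fragments (11.4 to 29.7), and that of replicate 2, at 37708006 to 37708605, a fold of 6.04 from 16 fragments (9.15 to 26.0). The summit was 10 bp downstream of the start in replicate 1 and 401 bp downstream in replicate 2, a gap of 391 bp that 5.88% of shared peaks reached or passed. The peak of replicate 2 lay wholly inside that of replicate 1 but ended 4 bp short of the start, so its class was 5′ UTR and not promoter. Such a switch of class was seen in 183 of 4172 shared promoter peaks of replicate 1 (4.39%), and KIF23 and ANLN were among them.

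PRC1, the microtubule bundler of the central spindle, lies on chromosome 7, 55869749 to 55900640. Its peak was nearly the same in both lists, 55869687 to 55870032 in replicate 1 and 55869685 to 55870032 in replicate 2, with summits 7 bp apart and 96 and 89 bp downstream of the start. The fold was 4.28 and 4.86, each from 12 fragments (6.20 to 21). The fold was low for a promoter peak, above 18.1% of 6251 in replicate 1 and 36.4% of 4673 in replicate 2. Of the 603 promoter peaks of replicate 1 with 11 or 12 fragments, as at KIF23 and PRC1, 209 (34.7%, 31.0 to 38.5) had a partner in replicate 2, and both of these genes were on that side.

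**Figure D3:**
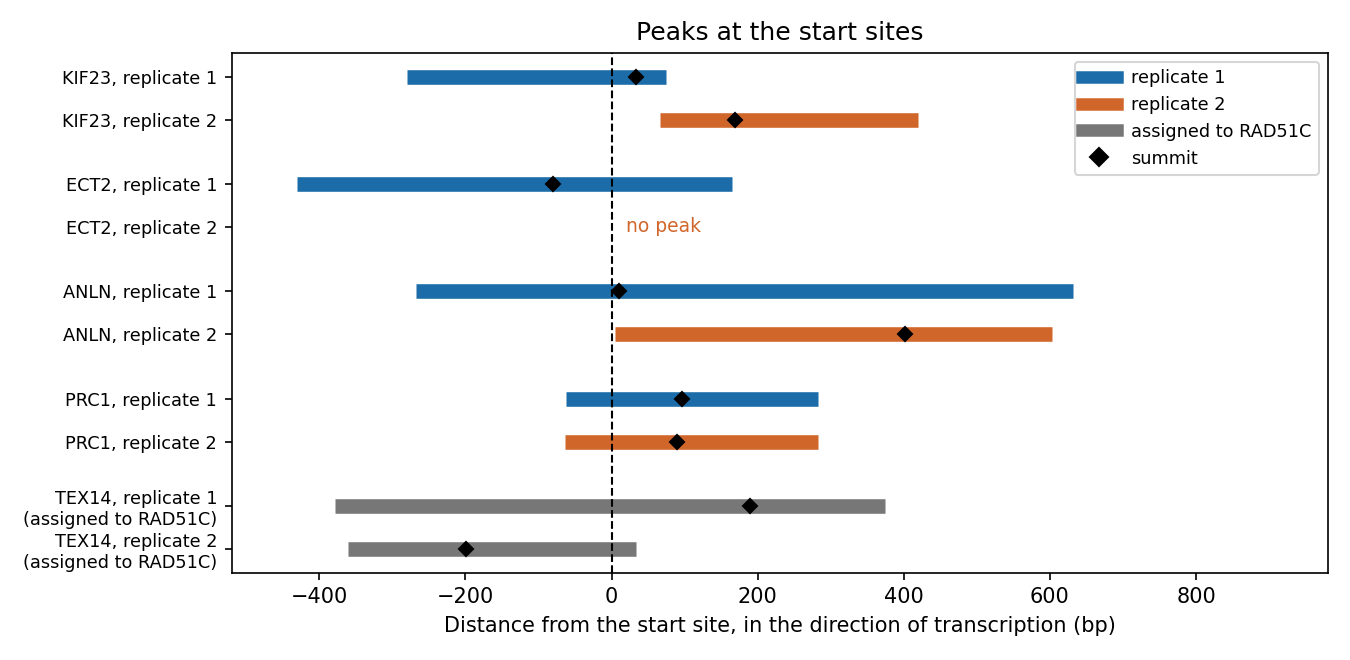
Extent of each peak at the start of the 4 genes with a peak there and at the start of TEX14, in bp from the start in the direction of transcription, with 1 line per library and the summit as a diamond. PRC1 had nearly the same peak in both libraries, the peaks of KIF23 and ANLN in replicate 2 began downstream of the start, and ECT2 had no peak in replicate 2.

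With promoter and 5′ UTR classes joined, 3 of the 6 genes (KIF23, ANLN and PRC1) had a start peak in both libraries, against 24.0% of all genes. The start peaks rested on 11 to 21 fragments, while the TEX14 peaks near 7 and 52 kb rested on 38 to 62. At KIF23, ANLN and PRC1 the ratio of fragments between the libraries was 1.00 (0.393 to 2.54), 1.19 (0.578 to 2.47) and 1.00 (0.411 to 2.43). ECT2 has no such ratio, with 21 fragments in replicate 1 and no peak in replicate 2. The background under these start peaks was 1.68 to 2.55 fragments, above 31.7% to 55.7% of the peaks of the same list.

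**Figure D4:**
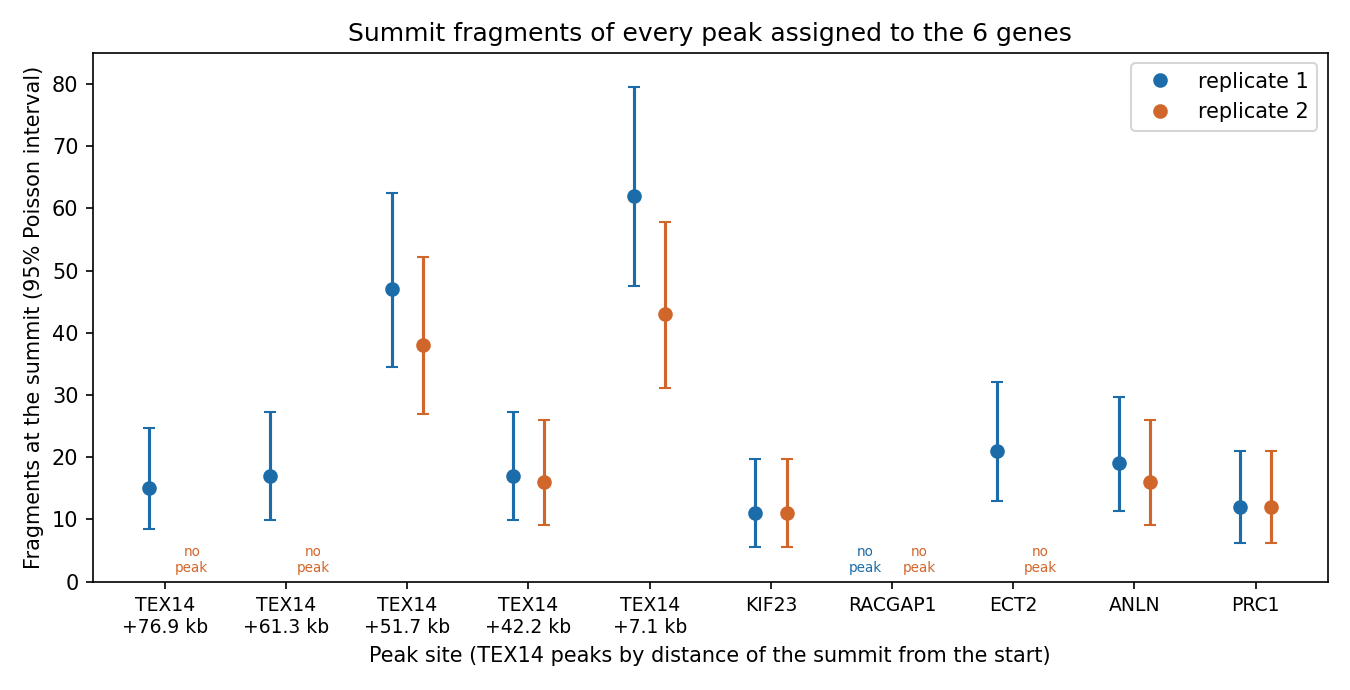
Fragments at the summit (vertical axis) with exact 95% Poisson intervals for every peak assigned to the 6 genes, with TEX14 peaks named by their distance from the start, in replicate 1 (blue) and replicate 2 (orange). The TEX14 sites near 7 and 52 kb held 38 to 62 fragments and all other peaks 11 to 21.

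The wider machinery was read from a list of 57 cytokinesis genes in 7 roles, of which 55 matched a symbol of the gene table. Leaving out the 6 genes, a promoter peak stood in both libraries at 16 of 49 (32.7%), against 20.8% of all genes. By library it was 25 of 49 in replicate 1, against 32.8% of all genes, and 17 of 49 in replicate 2, against 24.9%. The median of the lower fold over these 16 was 5.04, and over all 3438 genes called this way 5.13. The list was written with earlier results known and no test was made of it.

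In the ring, MYH9, the heavy chain of nonmuscle myosin IIA, had the strongest promoter peak, at 9.52-fold in replicate 1 and 6.57-fold in replicate 2. SEPTIN7, a core septin named SEPT7 in the files, followed at 6.32-fold and 6.40-fold and MYH10, the IIB heavy chain, at 6.56-fold and 5.10-fold. MYL9, DIAPH1 and SEPTIN2 had no assigned peak, although an HDLBP promoter peak (6.23-fold and 6.22-fold) lay within 3 kb of SEPTIN2. By peaks of any assigned class, 5 of 11 ring genes, ANLN included, had a peak in both libraries, against 28.2% of all genes. Of the kinases that act downstream of RHOA, CIT (5.45-fold and 4.46-fold) and ROCK1 (5.16-fold and 3.96-fold) had a promoter peak in both libraries and ROCK2 had no peak. In this role, which includes RHOA itself, 4 of 7 genes, ECT2 among them, had an assigned peak in 1 library only, against 22.5% of all genes. By position RHOA had a peak within 3 kb in both libraries.

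At the central spindle, CLASP1, which stabilises microtubule ends, had 5.79-fold and 6.25-fold. CLASP1 and PRC1 were the 2 of 8 genes of this role whose promoter peak was present in each library, against 20.8% of all genes. The kinesins KIF4A, KIF20A and KIF14 had no assigned peak, although a BRD8 promoter peak (7.82-fold and 6.35-fold) lay within 3 kb of KIF20A. Of the chromosomal passenger complex, which carries the kinase AURKB to the midzone, the scaffold INCENP had 5.87-fold and 6.39-fold, and AURKB and CDCA8 had no assigned peak. Peaks assigned to other genes lay within 3 kb of both in each library, at CDCA8 a C6H1orf109 promoter peak of 5.72-fold and 5.57-fold and at AURKB peaks of tRNA genes at 3.26-fold to 3.44-fold.

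Of 21 abscission genes, both libraries marked the promoters of 8 (38.1%, against 20.8% of all genes), led by SPAST, the microtubule-severing enzyme spastin (6.99-fold and 5.97-fold), IST1 (5.35-fold and 5.36-fold) and CHMP3 (5.06-fold and 6.34-fold), both of the ESCRT-III machinery. CHMP1A, CHMP2A and CHMP4A had no assigned peak, although an MDP1 promoter peak of replicate 1 (3.49-fold) lay within 3 kb of CHMP4A. CEP55, the midbody protein that TEX14 binds, was looked up after the values were seen: it had a promoter peak of 5.43-fold from 18 fragments in replicate 1 and of 4.12-fold from 11 fragments in replicate 2. RBM44, an RNA-binding protein of germ cell bridges, was marked at its promoter by replicate 2 alone, 5.26-fold from 13 fragments. Within the pair of germ cell bridge genes on the list, neither thus had a peak of the authors' promoter class in both libraries. Of the 21 pathway genes outside the 6 that had no assigned peak, 8 had a peak within 3 kb that the authors assigned to another gene. For CHMP4A this was so in replicate 1 only. The same share over all genes without an assigned peak was not counted, so the 8 are a description only.

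**Figure D5:**
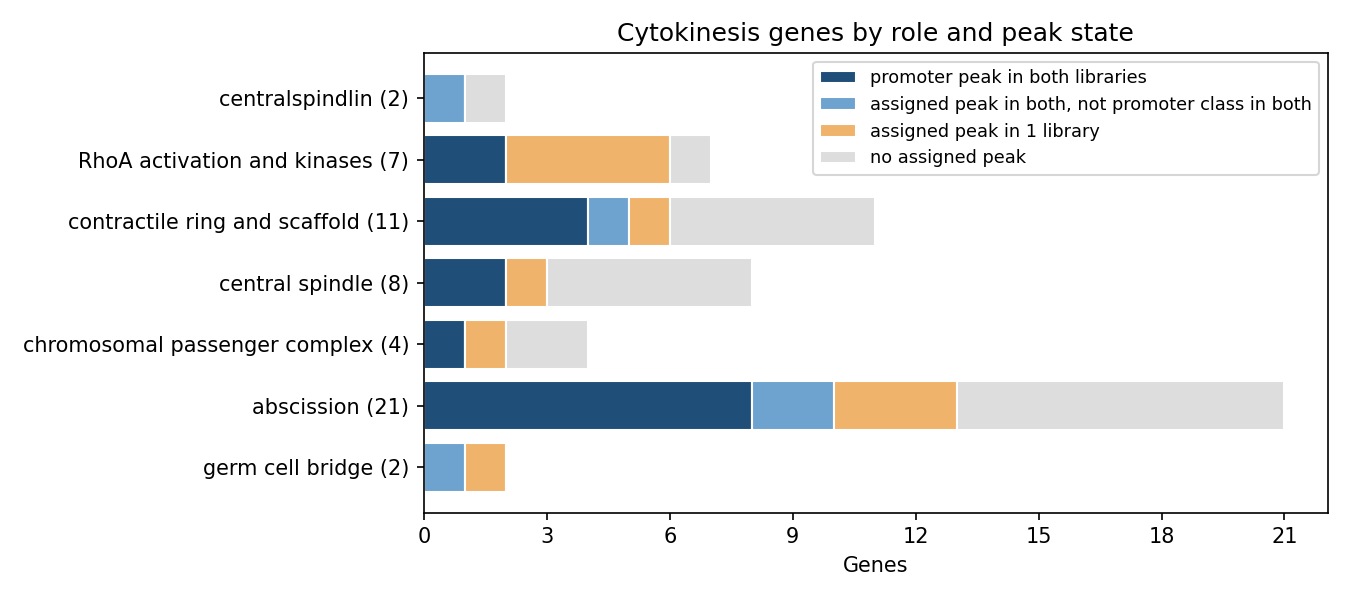
Number of genes (horizontal axis) in each of 7 roles of cytokinesis, with the number matched in parentheses, by peak state. A promoter peak in both libraries was found for 17 of 55 genes (20.8% of all genes), and 22 had no assigned peak in either library (49.3% of all genes).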

How the data were processed

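The deposited tables hold 1 list of ZBTB16 CUT&Tag peaks per library. Per the file headers, each row gives a position, a fold enrichment (a linear ratio), the −log10 of a p-value and of a q-value, a whole-number score, and the authors' gene and class. Build Sscrofa11.1 comes from the submitters' processing notes, while the sources used here do not name the aligner or peak caller, nor say which control, if any, the caller used. The score deposited by the authors and the other position columns were not tested.

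The genes and lists were chosen with earlier results of these data known. Fragments (n) and background (b) at a summit were recovered from fold = (n + 1)/(b + 1) and the Poisson tail, to a relative error under 1e-05, for 99.9% of peaks of each list. On 249 simulated peaks of replicate 1 and 249 of replicate 2, 100% were recovered, and 0% passed with counts that were not whole. The median peak held 16 and 14 fragments, and the lowest background, 1.21 and 0.979, stands in for depth, which is not given. Summits are the deposited start plus the relative summit position. Peaks were shared when they overlapped by at least 1 bp. The gene set was every protein-coding entry of the Sscrofa11.1 RefSeq table whose symbol was unique and no LOC number. Named are the 6 genes, in each role up to 3 genes with the highest lower fold among those with a promoter peak in both libraries and up to 3 with no peak, and the 3 genes most like TEX14 in number of peaks, of which 1 is not reported here. CEP55, RBM44, RHOA, TFEB, and neighbours of the 6 genes or of a pathway gene were named after their values were seen. Sequences were not used here. The computations used scipy 1.17.1, pandas 2.3.3, numpy 2.4.6 and, for the plots, matplotlib 3.10.9 in Python 3.11.15.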

Additional observations from a re-analysis of the deposited data

How the results depend on the processing

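The count of 4 of the 6 genes with an assigned peak in both libraries (28.2% of all genes) became 1 with the promoter class only (20.8%). It became 2 with folds at or above the list median (TEX14 and ANLN) and 2 with replicate 1 cut to the length of replicate 2. With replicate 1 left out it was 4, against 34.1% of all genes, and with replicate 2 left out 5, against 44.9%. It stayed at 4 by a stricter q and by position (36.1% of all genes). It was 3 with promoter and 5′ UTR classes together (24.0%), an alternative chosen after seeing the data. For the rules on fold, list length and q the share over all genes was not counted, so those counts are a description only. The 17 of 55 cytokinesis genes with a promoter peak in both libraries (20.8% of all genes) became 9 with folds at or above the list median. The share over all genes was not counted under that rule. By any peak within 3 kb, whatever its assigned gene, they became 30, while the share over all genes rose to 36.1%. With replicate 1 left out they were 18, against 24.9% of all genes, and with replicate 2 left out 29, against 32.8%. The 6 shared peaks of replicate 1 became 5 by reciprocal overlap and 5 by summits within 200 bp. The strongest TEX14 peak lay above 99.4% of intronic peaks in replicate 1 and 98.3% in replicate 2. Against all peaks of the library these shares were 98.3% and 94.9%, and by −log10 q among intronic peaks 99.3% in replicate 2. The motif search planned for promoters was not run, since no sequence of this build was used here. No paired analysis was possible because there is 1 group. With 11 to 21 fragments at most of these peaks, depth limits what a missing peak shows.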
